A study of Homo sapiens with 18 samples.

Results

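The genes described here encode the enzymes of glycolysis and of the pentose phosphate pathway, with the transporters that bring glucose in and take lactate out. They were chosen by name as a list of 35 human genes, and all 35 have a row among the 13661 genes of the deposited table. After genes with few reads were left out, 34 of the 35 were among the 12720 genes kept. The gene that dropped out was ALDOA.

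The study profiled ribosome load in HEK293, an established human embryonic kidney cell line (ATCC CRL-1573), grown in DMEM with fetal bovine serum and penicillin-streptomycin. Polysome profiling spins a cytoplasmic lysate through a sucrose gradient, so that an mRNA travels farther the more ribosomes it carries. The gradient was divided into a heavy polysome, a light polysome and a monosome fraction, and the RNA of each was sequenced. The 9 libraries used here come from cells given DMSO, the vehicle, for 12 h, with 3 gradients of 3 fractions each. The libraries of cells given 100 µM minocycline, a tetracycline antibiotic, for 12 h are not analysed here, so no comparison of drug with vehicle was made. All libraries are of a single cell line, and the labels do not say whether the numbered replicates were separate cultures, so the p-values measure the spread between these gradients.

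Glycolysis splits glucose into pyruvate in the cytosol and yields ATP and NADH on the way. Lactate dehydrogenase turns pyruvate into lactate and restores NAD+, which lets glycolysis go on in fast-growing cultured cells. The pentose phosphate pathway branches off from glucose 6-phosphate and supplies NADPH and ribose 5-phosphate, and its non-oxidative arm leads back into glycolysis.

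The libraries held between 13447139 and 24441159 reads assigned to genes. The smallest number of reads for any kept member in any library was 19, for ENO3. The 8 marker genes listed for HEK293 were all in the table. Of 12 markers of other cell types 5 were listed, with summed normalized counts of at most 280, for HBA1. The HEK293 markers reached 11333, for the neurofilament gene NEFM, but PAX2 at 263 and STMN2 at 9.80 lay below HBA1. The libraries of gradient 2 stood apart. Ribosomal protein mRNAs took 52.6% of the reads of its monosome library, against 37.8% and 33.3% in the monosome libraries of gradients 1 and 3, and mitochondrially encoded RNAs took 3.87%, against 26.0% and 19.5%. Its light polysome library correlated at 0.89 with the light libraries of gradients 1 and 3, which correlated at 0.99 with each other (Pearson, log2 normalized counts across genes). The same light library correlated at 0.94 with the heavy libraries, against 0.82 for the light libraries of gradients 1 and 3. Counts of called members, and members whose call turned on gradient 2, are therefore also given without it. Calls lost without gradient 1 or gradient 3 are given beside the counts.

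Mean ribosome load (MRL) was the main measure. It adds up a gene's shares in the 3 fractions of a gradient, where the heavy polysome share has a weight of 6, the light polysome share 2.5 and the monosome share 1, so it runs between 1 and 6. The shares rest on normalized counts, in which each library is scaled to the same typical gene. MRL therefore ranks genes against each other and says nothing of how much RNA a fraction held. These are bulk libraries, in which fewer cells holding an mRNA and less of it per cell cannot be told apart.

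Most glycolytic mRNAs lay toward the heavier part of the gradient relative to the typical gene. The median MRL of the 34 members was 3.82 ± 0.22, against 3.17 ± 0.01 over all genes kept (SD, n = 3 gradients). In gradients 1, 2 and 3 the members' median was 4.04, 3.60 and 3.81, above the median of all genes in each. The median member had 48.6% of its normalized count in the heavy, 23.1% in the light polysome and 26.6% in the monosome fraction. The median of all genes was 33.8% in the heavy, 30.8% in the light polysome and 31.3% in the monosome fraction. A gene was called when limma's moderated test over the 3 gradients gave an adjusted p under 0.05 for log2 MRL against the median gene. By this test 17 of 34 members lay above the typical gene, beside 22.0% of all genes. Below it lay 2 of 34 members, BPGM and ENO3, beside 24.7% of all genes. The other 15 members were not called in either direction.

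The count of 17 depended on which gradients entered. It was 8 without gradient 1, beside 9.89% of all genes, 20 without gradient 2, beside 29.1%, and 11 without gradient 3, beside 14.4%. The members gained without gradient 2 were LDHB, GPI and TALDO1. Without gradient 3, HK2 was gained, and TPI1, RPE, PGM1, PFKP, PFKFB2, PFKFB4 and H6PD were no longer called. Without gradient 1, the 8 called were PGK1, PGAM1, PKM, PFKL, ENO1, ALDOC, LDHA and SLC2A1, all of them among the 17. These 8 were called in each of the 12 alternatives tried for MRL, which are listed among the processing steps. The count also depended on the measure. When the summed light and heavy share took the place of MRL, 12 members were called above, all among the 17.

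**Figure D1:**
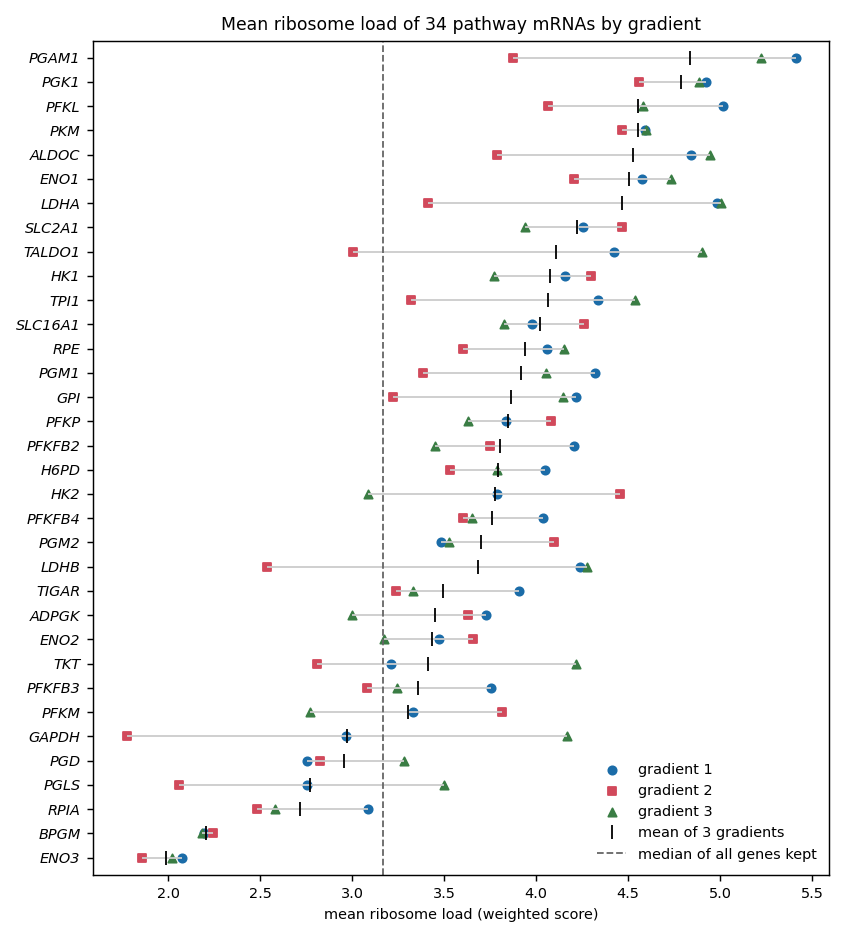
Mean ribosome load of each member in gradients 1, 2 and 3, with members ordered by their mean (black bar) and the dashed line at the median of all genes kept. PGAM1 and PGK1 lie at the top with means of 4.84 and 4.79, BPGM and ENO3 at the bottom with 2.21 and 1.99, and GAPDH shows the widest spread between gradients, at 2.96, 1.77 and 4.17.

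The sequence around the start codon is shown for the 3 members with the highest and the 3 with the lowest MRL, since these mark the ends of the range, and for LDHA and LDHB, which encode the subunits of 1 enzyme. Each runs from 9 bases before the start codon to 9 bases after it, 5′ to 3′, as in the GENCODE release 29 transcript on GRCh38, with the start codon in capitals. In order of mean MRL they read as follows.
PGAM1: cccgccgccATGgccgcctac
PGK1: atttccaaaATGtcgctttct
PFKL: gccgccgccATGgccgcggtg
LDHA: aagtccaatATGgcaactcta
LDHB: ttgtgcaaaATGgcaactctt
RPIA: ggcgtcgggATGcagcgcccc
BPGM: gccatcagtATGtccaagtac
ENO3: gtaaaggccATGgccatgcag
The start codon of mammalian mRNAs is usually preceded by a purine 3 bases upstream, and often followed by a G, which are the letters of the Kozak context. A purine stood there in 34 of 35 members, beside 85.9% of all genes. A G followed the start codon in 19 of 35 members, beside 52.4% of all genes. Both held for 18 of 35 members, beside 45.0% of all genes. PGK1, near the top of the range, and RPIA and BPGM, near the bottom, lack the G, while PGAM1 and ENO3, at the opposite ends, both have it.

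Glucose entry and the upper steps of glycolysis, which use ATP and split the sugar, were high on the gradient. Of the 9 kept genes 6 were called above the typical gene in MRL, beside 22.0% of all genes. The median MRL of the 9 was 4.07 ± 0.14 (SD, n = 3 gradients). PFKL encodes the liver-type subunit of phosphofructokinase, the main control point of glycolysis, and lies at chr21:44300051-44327376 (GRCh38, plus strand). Its MRL was 5.02, 4.07 and 4.58 in the 3 gradients. The normalized counts were 1963, 1529 and 1206 in the heavy libraries, against 328, 500 and 383 in the monosome libraries. The light libraries held 245, 909 and 165. All heavy libraries lay above all monosome libraries. The difference was 1.95 on the log2(normalized count + 1) scale (SE 0.50, adjusted p = 0.005897, limma), higher in 3 of 3 gradients. Differences on this scale understate the change of low genes.

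SLC2A1, the glucose transporter GLUT1, had an MRL of 4.26, 4.47 and 3.94. Its normalized counts were 463, 641 and 344 in the heavy libraries, against 153, 137 and 173 in the monosome libraries. The groups did not overlap, and the log2 difference was 1.60 (SE 0.34, adjusted p = 0.001803, limma). The hexokinases phosphorylate glucose on entry. HK1, with an MRL of 4.16, 4.30 and 3.77, had 516, 1155 and 464 normalized counts in the heavy, 179, 599 and 196 in the light and 207, 270 and 284 in the monosome libraries. It was called higher in the heavy fraction, by 1.37 (SE 0.46, adjusted p = 0.0244, limma, 3 of 3 gradients). HK2, with an MRL of 3.79, 4.46 and 3.08, had 408, 717 and 255 normalized counts in the heavy, 189, 256 and 219 in the light and 237, 175 and 295 in the monosome libraries, and heavy and monosome values overlapped. Its difference of 0.87 was not called (adjusted p = 0.07078, limma).

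ALDOC, an aldolase best known from brain, had an MRL of 4.84, 3.78 and 4.95. Its normalized counts were 804, 404 and 558 in the heavy, 101, 203 and 68.7 in the light and 181, 227 and 107 in the monosome libraries. Heavy exceeded monosome counts by a log2 difference of 1.78 (SE 0.43, adjusted p = 0.003933, limma, 3 of 3 gradients), with no overlap. TPI1, triose phosphate isomerase, was also called higher in heavy polysomes than in monosomes, by 1.68 (adjusted p = 0.01046, limma, 3 of 3 gradients). GPI, glucose 6-phosphate isomerase, had 5852, 4804 and 5167 normalized counts in the heavy libraries, against 2350, 4861 and 2330 in the monosome libraries. Its heavy value lay above the monosome value in gradients 1 and 3 and just below it in gradient 2, and the difference of 0.82 was not called (adjusted p = 0.1332, limma). Without gradient 2 it was 1.23 (adjusted p = 0.0007515, limma), and without only the monosome library of gradient 2 it was 1.17 (adjusted p = 0.04762, limma). In MRL, GPI was called without gradient 2, at 0.40 (adjusted p = 0.0004593, limma). With all 3 gradients it was not called in the main setting (0.28, adjusted p = 0.05155, limma). It was called there with total-read scaling, the mean gene as reference, a heavy weight of 10 or a loess fit on coding length. Those adjusted p-values lay between 0.02086 and 0.0383 (limma).

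ALDOA encodes the aldolase of muscle and of most cultured cells. In this table it had 8, 20 and 14 reads in the heavy, 6, 5 and 3 in the light and 4, 14 and 5 in the monosome libraries. These values are below the filter on reads, so ALDOA entered no test. Its exons at chr16:30064164-30070457 (GRCh38, plus strand) are covered over 42.3% of their length by AC093512.2, another annotated gene on the same strand. How the authors counted reads shared by overlapping genes is not given in the sources used here, and the part of the overlap in the low count was not tested.

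The lower steps of glycolysis, which repay the ATP, spanned the whole range. Of the 7 genes 4 were called above the typical gene in MRL and 1 below it, beside 22.0% and 24.7% of all genes. The median MRL of the 7 was 4.35 ± 0.41 (SD, n = 3 gradients). PGAM1, the phosphoglycerate mutase of most tissues, lies at chr10:97426160-97433441 (GRCh38, plus strand). Its MRL was 5.41, 3.87 and 5.22, with a mean of 4.84 ± 0.84 at percentile 99.6 of all genes kept. The normalized counts were 39151, 11296 and 18654 in the heavy libraries, against 2807, 2319 and 2130 in the monosome libraries. Every heavy library was above every monosome library, by 3.07 on the log2 scale (SE 0.61, adjusted p = 0.001314, limma). The light libraries held 3651, 12663 and 2030, so the light library of gradient 2 stood well above the other light libraries and above the heavy library of its own gradient. PGAM1 has 13 named pseudogenes in the annotation, and how reads that match several of them were counted is not known, so its count is uncertain.

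PGK1, phosphoglycerate kinase and the first ATP-yielding step, lies at chrX:77910739-78129296 (GRCh38, plus strand). Its MRL was 4.92, 4.56 and 4.88, a narrower spread than that of PGAM1. The normalized counts were 8713, 11106 and 6745 in the heavy libraries, against 1665, 1429 and 1234 in the monosome libraries. The light libraries held 1182, 5306 and 1149, with gradient 2 the highest. The heavy and monosome groups were far apart, with a log2 difference of 2.60 (SE 0.52, adjusted p = 0.0013, limma, 3 of 3 gradients). PKM, pyruvate kinase, had an MRL of 4.59, 4.47 and 4.60, which is a mean of 4.55 ± 0.07 (SD, n = 3 gradients). Its normalized counts were 9697, 13507 and 8427 in the heavy, 2423, 5155 and 2292 in the light and 2398, 3033 and 1952 in the monosome libraries. Heavy exceeded monosome counts by a log2 difference of 2.09 (adjusted p = 0.001361, limma, 3 of 3 gradients). PGK1 and PKM held their place in all 3 gradients, gradient 2 included.

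The 3 enolases convert 2-phosphoglycerate to phosphoenolpyruvate and lay far apart, although their coding sequences have the same length of 1302 nt. ENO1, the enolase of most tissues, had an MRL of 4.58, 4.21 and 4.73. ENO2, the neuronal form, had an MRL of 3.47, 3.66 and 3.17. ENO3, the muscle form, had an MRL of 2.08, 1.86 and 2.02. The order of the 3 was the same in every gradient. ENO1 had 17031, 27414 and 18633 normalized counts in the heavy, 4475, 12482 and 4059 in the light and 4170, 8662 and 3887 in the monosome libraries. It was called higher in heavy polysomes than in monosomes, by 1.98 (SE 0.52, adjusted p = 0.006683, limma, 3 of 3 gradients). ENO2 had 162, 194 and 140 normalized counts in the heavy libraries, 64.9, 92.9 and 38.8 in the light and 140, 130 and 170 in the monosome libraries, so the light count was the lowest in each gradient.

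ENO3 lies at chr17:4948092-4957131 (GRCh38, plus strand) and had the lowest MRL of the kept members. Its normalized counts were 22.9, 18.5 and 22.4 in the heavy libraries, against 90.6, 99.5 and 93.7 in the monosome libraries. The light libraries held 18.2, 14.0 and 14.2. Its normalized count was thus highest in the monosome fraction in each gradient. Heavy polysomes were lower than monosomes by a log2 difference of -2.11 (SE 0.38, adjusted p = 0.0006293, limma, 3 of 3 gradients). With libraries scaled to total reads, the ENO3 difference was -0.85 and was not called (adjusted p = 0.07611, limma). ENO3 is a low-count gene, with 19 to 58 reads per library.

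GAPDH, the dehydrogenase that yields NADH and a common reference gene, differed more between gradients than any other member. Its MRL was 2.96, 1.77 and 4.17, a mean of 2.97 ± 1.20 (SD, n = 3 gradients). The normalized counts were 26837, 17570 and 39590 in the heavy, 13461, 8835 and 12521 in the light and 38296, 104069 and 16260 in the monosome libraries. The normalized count was highest in the heavy fraction in gradient 3 and in the monosome fraction in gradients 1 and 2. GAPDH was not called in MRL (log2 deviation -0.18 with adjusted p = 0.4879, limma) or between heavy and monosome fractions (-0.60, adjusted p = 0.4592, limma). Its MRL deviation turned positive without gradient 2, at 0.15, while without gradient 3 it was -0.47 and was called (adjusted p = 0.003864, limma). GAPDH lies at chr12:6533927-6538374 (GRCh38, plus strand) and has 62 named pseudogenes in the annotation, so its count is uncertain for the same reason.

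**Figure D2:**
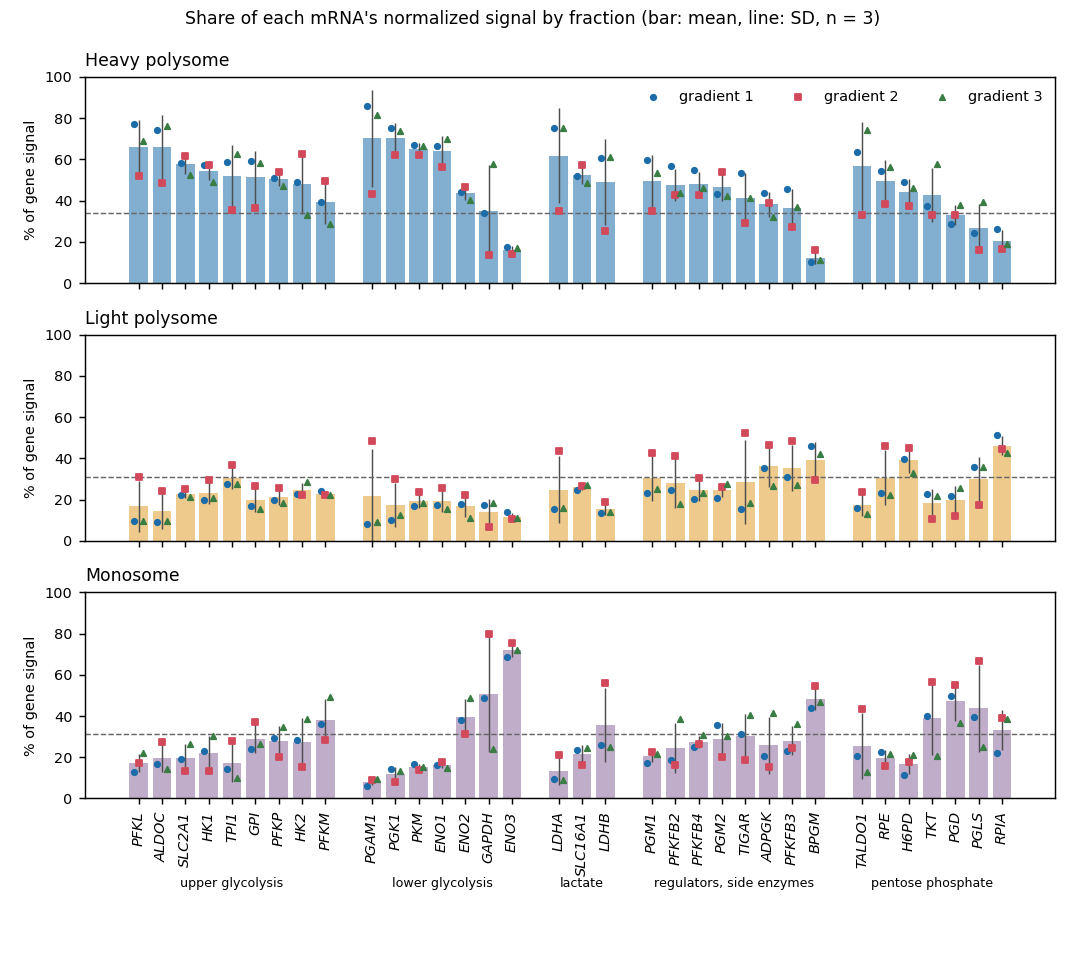
Percent of each member's normalized count in the heavy polysome, light polysome and monosome fraction, as bars for the mean, lines for the SD and points for the 3 gradients, with members grouped by role and dashed lines at the median of all genes kept (33.8%, 30.8% and 31.3%). ENO3 has the tallest monosome bar and BPGM the shortest heavy bar, while the squares of gradient 2 stand apart for GAPDH, LDHB and PGAM1.

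Lactate dehydrogenase consists of subunits made from LDHA and LDHB, and their mRNAs differed in load. LDHA had an MRL of 4.98, 3.41 and 5.004, and LDHB one of 4.24, 2.54 and 4.28. LDHB was lower than LDHA in each gradient, by a log2 difference of -0.30 ± 0.11 (SD, n = 3 gradients). LDHA had 54222, 16547 and 37222 normalized counts in the heavy, 10959, 20485 and 7790 in the light and 6980, 10033 and 4390 in the monosome libraries. It was called higher in heavy polysomes than in monosomes, by 2.25 (SE 0.57, adjusted p = 0.005221, limma, 3 of 3 gradients). LDHB had 47134, 24733 and 39016 normalized counts in the heavy, 10347, 18439 and 8788 in the light and 20132, 55289 and 15763 in the monosome libraries. Its heavy value was above the monosome value in gradients 1 and 3 and below it in gradient 2, and the difference of 0.46 was not called (adjusted p = 0.5328, limma). Without gradient 2, the LDHB difference was 1.27 and was called (adjusted p = 0.002786, limma), as was its MRL deviation of 0.43 (adjusted p = 0.0002614, limma). The coding sequences measure 996 nt for LDHA and 1002 nt for LDHB. LDHB shares 33.4% of its exonic length with the overlapping gene AC010197.2 on the same strand, and LDHA and LDHB have 6 and 3 named pseudogenes in the annotation.

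SLC16A1, the lactate transporter MCT1, had an MRL of 3.98, 4.26 and 3.82. Its normalized counts were 4446, 4838 and 3314 in the heavy libraries, against 1986, 1369 and 1689 in the monosome libraries, with no overlap. The log2 difference was 1.32 (SE 0.34, adjusted p = 0.006337, limma).

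The regulators and side enzymes had a median MRL of 3.57 ± 0.23 (SD, n = 3 gradients). Of 8 genes 3 were called above and 1 below the typical gene, beside 22.0% and 24.7% of all genes. The genes called above were PFKFB2 and PFKFB4, bifunctional enzymes that set the level of the phosphofructokinase activator fructose 2,6-bisphosphate, and PGM1, which links glycogen to glycolysis. In MRL, none of them was called without gradient 1, nor without gradient 3. PGM1 was not called in MRL with libraries scaled to total reads (log2 deviation 0.23, adjusted p = 0.05312, limma). On the summed light and heavy share in place of MRL, PFKFB2 and PFKFB4 were not called (adjusted p = 0.3635 and 0.5596, limma). PGM1 had 1202, 1101 and 1049 normalized counts in the heavy, 467, 1352 and 489 in the light and 351, 706 and 421 in the monosome libraries. Of these 3 genes, only PGM1 was called higher in heavy polysomes than in monosomes, by 1.24 (adjusted p = 0.02417, limma, 3 of 3 gradients). PFKFB2 had 338, 355 and 239 normalized counts in the heavy, 148, 344 and 98.5 in the light and 110, 135 and 210 in the monosome libraries. Its heavy against monosome difference of 1.06 was not called (adjusted p = 0.05188, limma), although the groups did not overlap. Without gradient 2 it was 0.90 and was called (adjusted p = 0.0365, limma). PFKFB4 had 174, 88.1 and 99.1 normalized counts in the heavy, 64.2, 62.9 and 50.02 in the light and 79.8, 54.5 and 66.2 in the monosome libraries, and its 0.79 was not called (adjusted p = 0.07989, limma). Without gradient 2 it was 0.84 and was called (adjusted p = 0.04633, limma). The remaining genes ADPGK, PFKFB3, PGM2 and TIGAR had mean MRLs between 3.36 and 3.70 and were not called in the main setting. With total-read scaling, the mean gene or the loess fit, PGM2 was called above in MRL (adjusted p = 0.0389, 0.03401 and 0.03687, limma). TIGAR was called above with the loess fit (adjusted p = 0.04428, limma). TIGAR shares 42.6% of its exonic length with AC008012.1 on the same strand. PFKFB3 had 739, 379 and 502 normalized counts in the heavy, 499, 674 and 372 in the light and 375, 346 and 494 in the monosome libraries. PGM2 had 642, 1159 and 613 normalized counts in the heavy, 309, 557 and 396 in the light and 530, 426 and 441 in the monosome libraries. For both, heavy exceeded monosome counts in 3 of 3 gradients. The PGM2 difference of 0.73 was not called (adjusted p = 0.09366, limma), but without the light library of gradient 2 it was (adjusted p = 0.04762, limma).

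BPGM, which makes the haemoglobin effector 2,3-bisphosphoglycerate in red cells, was the exception among them. It lies at chr7:134646808-134679813 (GRCh38, plus strand). Its MRL was 2.20, 2.25 and 2.18, a mean of 2.21 ± 0.03 (SD, n = 3 gradients). The normalized counts were 321, 301 and 392 in the heavy libraries, against 1389, 1021 and 1670 in the monosome libraries. The groups were well apart, with a log2 difference of -1.99 (SE 0.40, adjusted p = 0.001314, limma, 3 of 3 gradients). The light libraries held 1464, 555 and 1494, above every heavy library. BPGM and PGAM1 belong to the same enzyme family and have coding sequences of 777 and 762 nt, yet BPGM was lower in MRL in each gradient, by a log2 difference of -1.11 ± 0.29 (SD, n = 3 gradients). On the summed light and heavy share in place of MRL, BPGM still lay below the typical gene but was not called (log2 deviation -0.42, adjusted p = 0.08081, limma).

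The pentose phosphate genes were spread widely, with a median MRL of 3.27 ± 0.49 (SD, n = 3 gradients). Of 7 genes 2 were called above the typical gene, H6PD and RPE, beside 22.0% of all genes. With 7 genes, these calls do not set the group apart from all genes. The H6PD call in MRL was lost with libraries scaled to total reads (log2 deviation 0.16, adjusted p = 0.09271, limma). Among the oxidative genes, H6PD, the enzyme of the endoplasmic reticulum, had an MRL of 4.05, 3.53 and 3.79. Its normalized counts were 475, 301 and 346 in the heavy, 381, 364 and 248 in the light and 110, 145 and 160 in the monosome libraries. Both polysome fractions lay above the monosome fraction in every gradient, with log2 differences of 1.42 for heavy (adjusted p = 0.002669, limma) and 1.25 for light polysomes (adjusted p = 0.0152, limma).

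The cytosolic oxidative enzymes were lower on the gradient. PGLS, the lactonase, had an MRL of 2.76, 2.06 and 3.50, with 864, 688 and 1414 normalized counts in the heavy, 1280, 746 and 1296 in the light and 1410, 2874 and 895 in the monosome libraries. PGD, the NADPH-yielding phosphogluconate dehydrogenase, had an MRL of 2.76, 2.82 and 3.28, with 967, 1676 and 1287 normalized counts in the heavy, 735, 621 and 859 in the light and 1680, 2810 and 1240 in the monosome libraries. Neither was called in MRL or between heavy polysomes and monosomes. PGD was lower in light polysomes than in monosomes, by a log2 difference of -1.30 (adjusted p = 0.0263, limma, 3 of 3 gradients). Without the monosome library of gradient 2 this was -0.98 and was not called (adjusted p = 0.091, limma). With libraries scaled to total reads it was -0.10 and was not called (adjusted p = 0.8359, limma), where the median of all genes was 1.22.

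In the non-oxidative arm, the isomerases differed. RPE, the epimerase, had an MRL of 4.06, 3.60 and 4.15, with 2085, 1730 and 1943 normalized counts in the heavy, 896, 2092 and 772 in the light and 865, 706 and 736 in the monosome libraries. Its heavy libraries were above its monosome libraries by 1.32 (SE 0.38, adjusted p = 0.01142, limma, 3 of 3 gradients). RPIA, which makes ribose 5-phosphate and lies at chr2:88691644-88750935 (GRCh38, plus strand), had an MRL of 3.08, 2.48 and 2.58. It had 1239, 563 and 891 normalized counts in the heavy, 2435, 1533 and 2011 in the light and 1050, 1350 and 1828 in the monosome libraries. The normalized count was highest in the light fraction in each gradient. RPIA was lower in heavy than in light polysomes by a log2 difference of -1.20 (SE 0.38, adjusted p = 0.02839, limma, 3 of 3 gradients).

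The transferases of this arm, TKT and TALDO1, depended on the gradient. TKT, transketolase, had an MRL of 3.21, 2.81 and 4.22, with 2099, 3790 and 3704 normalized counts in the heavy, 1272, 1196 and 1397 in the light and 2245, 6496 and 1306 in the monosome libraries. TALDO1, transaldolase, had an MRL of 4.42, 3.01 and 4.90, with 4081, 2189 and 4291 normalized counts in the heavy, 1007, 1567 and 764 in the light and 1317, 2871 and 736 in the monosome libraries. Heavy exceeded monosome counts of TALDO1 in gradients 1 and 3 but not in gradient 2. Its log2 difference of 1.26 was called by limma (adjusted p = 0.04345, 2 of 3 gradients). It was not called by edgeR without the replicate block (adjusted p = 0.07626) or by DESeq2 (adjusted p = 0.05093). In MRL, TALDO1 was not called in the main setting (log2 deviation 0.35, adjusted p = 0.05912, limma). Without gradient 2 it was called, at 0.56 (adjusted p = 4.466e-05, limma). With all gradients it was also called with total-read scaling, the mean gene, a heavy weight of 10 or the loess fit. Those adjusted p-values lay between 0.01321 and 0.04652 (limma). TKT was not called in MRL or between heavy polysomes and monosomes. Its heavy against monosome difference, 0.21 in limma, was -0.07 in edgeR and -0.11 in DESeq2, but 0.09 in edgeR with the replicate block.

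Between the fractions themselves, 16 of 34 members were called higher in heavy polysomes than in monosomes, beside 24.7% of all genes. Lower were 2 of 34, again BPGM and ENO3, beside 24.4% of all genes. The median member differed by 0.87 on the log2 scale, against 0.13 for all genes. The groups did not overlap for 18 members with heavy above monosome and for 2 with heavy below it, beside 31.4% and 29.04% of all genes. Without gradient 1 the count of 16 was 5, beside 9.99% of all genes, without gradient 2 it was 20, beside 31.4%, and without gradient 3 it was 10, beside 13.8%. The calls lost without gradient 1 were those of PFKL, HK1, H6PD, ENO1, LDHA, TPI1, RPE, SLC16A1, PGM1, PFKP and TALDO1. Of these, ENO1, LDHA, TPI1, RPE, SLC16A1, PGM1, PFKP and TALDO1 were not called without gradient 3 either. Without the light library of gradient 2 alone, 18 were called, beside 29.3%. When libraries were scaled to their total reads, the median of all genes shifted to 1.39, and 87.5% of all called genes were higher in heavy polysomes, against 50.4% in the main scaling. Then 28 of 34 members were called higher, beside 60.8% of all genes, and BPGM and ENO3 were not called, at -0.70 and -0.85. The number of members above the median of all genes was 27 of 34 under both scalings.

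In light polysomes against monosomes few members were called. Higher was 1 of 34, H6PD, beside 8.47% of all genes, and lower were 3 of 34, ENO2, PGD and ENO3, beside 10.2%. H6PD, ENO2 and PGD were not called without gradient 1, nor without gradient 3. The median member differed by -0.12, against 0.04 for all genes. Scaled to total reads, with a median of 1.22 over all genes, 19 of 34 were called higher, beside 58.1% of all genes, and 1 lower, beside 2.88%. ENO2 and PGD were then not called, at -0.04 and -0.10 (adjusted p = 0.9406 and 0.8359, limma). Of all called genes, 95.3% were higher under this scaling, against 45.3% in the main scaling. Above the median of all genes were 16 of 34 under both scalings. In heavy against light polysomes, 12 of 34 members were higher, beside 14.7% of all genes, and 2 of 34, RPIA and BPGM, were lower, beside 17.5%. The median difference was 0.99, against 0.05 for all genes. The 12 higher in heavy than in light polysomes comprised ALDOC, PFKL, PGK1, PGAM1, PKM, ENO1, TALDO1, ENO2, GPI, SLC2A1, PFKP and SLC16A1. ALDOC had the largest of these differences, 2.33 (SE 0.43, adjusted p = 0.006824, limma, 3 of 3 gradients). PGAM1, at 2.15, was higher in heavy than in light polysomes in 2 of 3 gradients and lower in gradient 2. The count rested on the libraries used. Without gradient 1 limma called 0 members and 0 genes in all, with 9 members at an unadjusted p under 0.05. Without gradient 3 it called 0 members and 1 gene in all, with 11 members at an unadjusted p under 0.05. Without gradient 2 it called 24 members, beside 29.9% of all genes, and without the light library of gradient 2 alone 22, beside 24.7%. DESeq2 called 19 members on all 9 libraries, and it also called more of all genes than limma did.

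**Figure D3:**
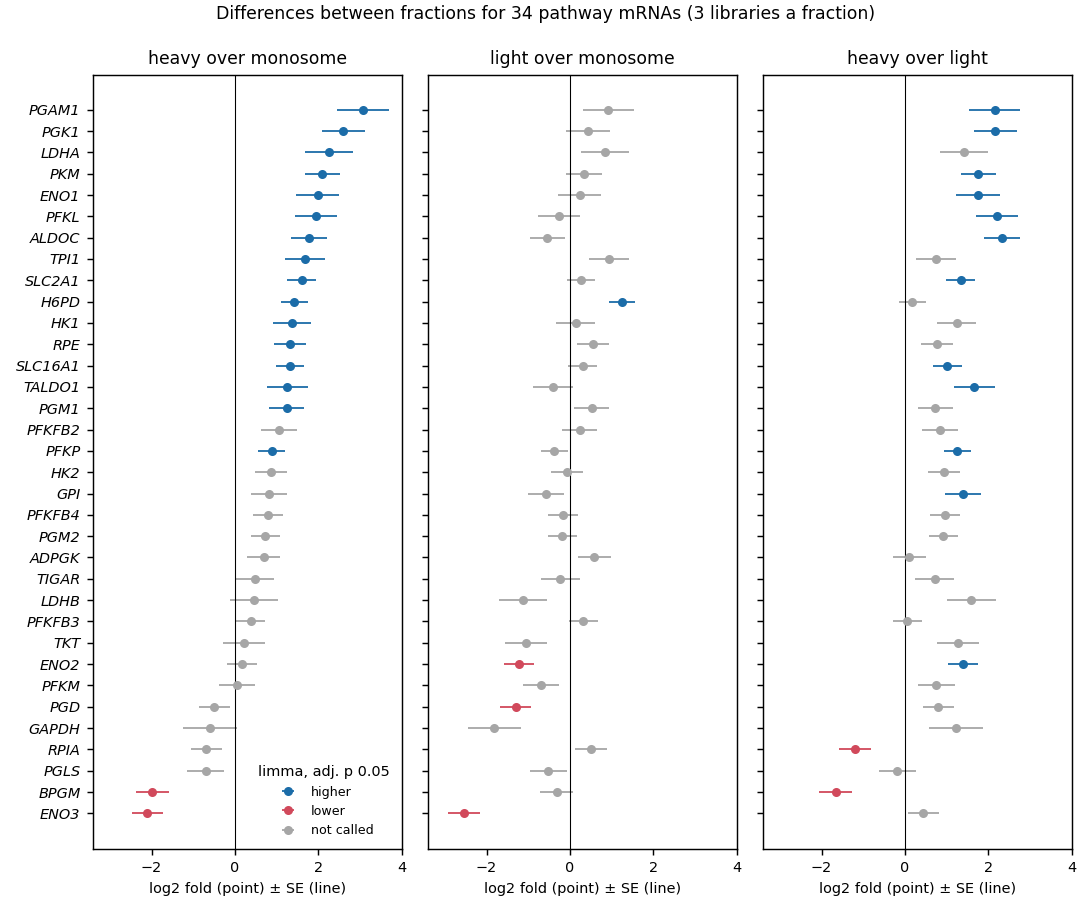
Log2 difference of normalized counts for each member in heavy polysomes over monosomes, light polysomes over monosomes and heavy over light polysomes, with lines for the standard error (3 libraries a fraction) and colours for calls by limma. Heavy over monosome runs between 3.07 for PGAM1 and -2.11 for ENO3, while light over monosome has a single call above 0, H6PD at 1.25, and 3 below 0.

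The members' share of all reads was also highest in the heavy fraction. It was 1.86%, 1.5005% and 1.69% in the heavy, 0.542%, 0.999% and 0.436% in the light and 0.292%, 0.700% and 0.261% in the monosome libraries, for gradients 1 to 3. The 95% Wilson intervals reach at most 0.0065 percentage points to either side and cover counting error only. These shares depend on what else a library held, such as the ribosomal protein mRNAs of the monosome libraries given above, and the part of that was not tested. Heavy libraries were above light and monosome libraries throughout. The sum leans on a few abundant members. In the heavy library of gradient 1, LDHA had 66254, LDHB 57593 and PGAM1 47839 of the 316713 member reads.

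Isozymes of 1 step could be set side by side in each gradient, as log2 differences in MRL. Over 3 gradients an exact sign-flip permutation test cannot go below a p of 0.25, so these are descriptions without a test. Among the phosphofructokinases, PFKM, the muscle form, was lower than PFKL in each gradient, by -0.47 ± 0.33 (SD, n = 3 gradients). PFKP, the platelet form, was lower than PFKL on average, by -0.24 ± 0.21, but higher in gradient 2, and it was higher than PFKM in each gradient, by 0.23 ± 0.15. PFKP had an MRL of 3.84, 4.08 and 3.63, and PFKM one of 3.33, 3.81 and 2.77.

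The heavy against monosome values ran the same way. PFKP had 987, 1181 and 774 normalized counts in the heavy, 384, 566 and 305 in the light and 571, 445 and 567 in the monosome libraries. Its heavy against monosome difference was 0.88 (adjusted p = 0.03904, limma, 3 of 3 gradients). Without the monosome library of gradient 2 this was 0.76 and was not called (adjusted p = 0.09968, limma). PFKM had 673, 1846 and 637 in the heavy, 418, 818 and 487 in the light and 623, 1054 and 1088 in the monosome libraries, with overlap, and its heavy against monosome difference of 0.05 was not called (adjusted p = 0.9341, limma). ENO2 and ENO3 lay below ENO1 in each gradient, by -0.39 ± 0.19 for ENO2 and -1.18 ± 0.04 for ENO3. HK2 was higher than HK1 in gradient 2 but lower in the other gradients, by -0.12 ± 0.17 on average. In the PFKFB family, PFKFB3 was lower than PFKFB2 by -0.18 ± 0.10 and PFKFB4 higher than PFKFB3 by 0.17 ± 0.06, in each gradient, while PFKFB4 and PFKFB2 differed by -0.01 ± 0.08. PFKFB2 had an MRL of 4.21, 3.75 and 3.45, PFKFB3 of 3.75, 3.08 and 3.24, and PFKFB4 of 4.04, 3.60 and 3.65. PGM2 had an MRL of 3.48, 4.10 and 3.52, and PGM1 one of 4.32, 3.38 and 4.05. They differed by -0.08 ± 0.31, PGM2 minus PGM1, with PGM2 higher in gradient 2 and lower in the other gradients.

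Gradient 2 moved the members unevenly. In MRL, 22 of 34 members (64.7%) were lower in gradient 2 than in both other gradients, beside 47.6% of all genes. A further 9 (26.5%) were higher than in both, beside 34.6% of all genes. The 9 were BPGM, ENO2, HK1, HK2, PFKM, PFKP, PGM2, SLC16A1 and SLC2A1, which include both hexokinases and both transporters. Their median coding length was 1836 nt, against 1172 nt for the 22 that were lower. Their median level was 518 normalized counts per kb of transcript, against 2569 for the 22. Across the 34 members, the difference between gradient 2 and the mean of gradients 1 and 3 went with coding length at a Spearman rho of 0.52 and with the summed normalized count at -0.56, and over all genes at 0.48 and -0.27. Members share the same libraries, so these are descriptions across genes, and their part in the results was not tested.

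**Figure D4:**
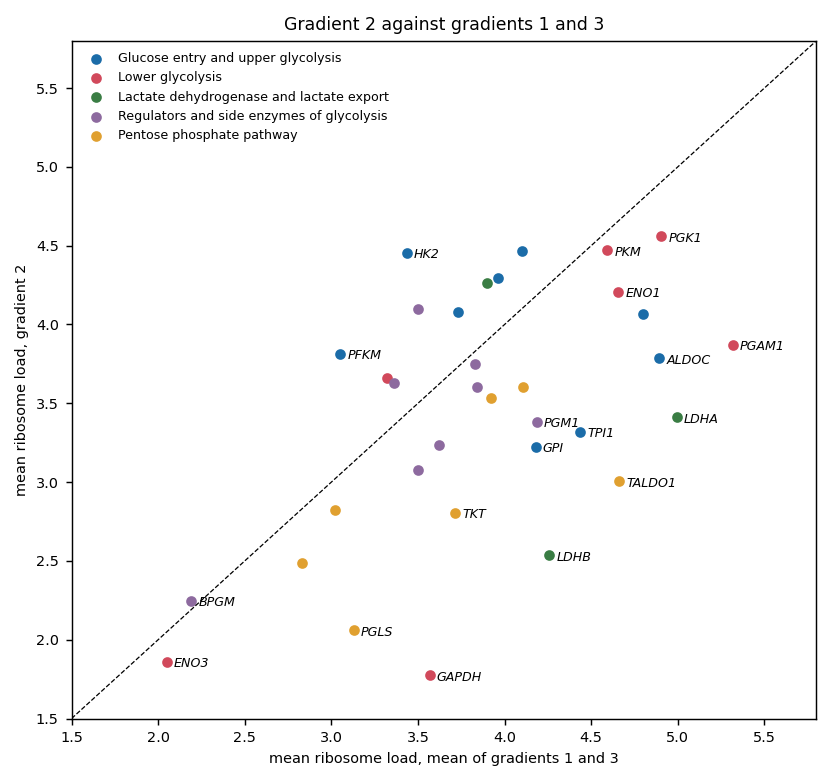
Mean ribosome load of each member in gradient 2 against its mean in gradients 1 and 3, coloured by role, with the dashed line at equal values. HK2 and PFKM lie above the line, GAPDH, LDHA, LDHB, PGAM1 and TALDO1 well below it, and PKM and BPGM close to it.

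The ranks of the members held better between gradients 1 and 3. The Spearman rho across the 34 members was 0.83 between gradients 1 and 3, 0.52 between 1 and 2 and 0.25 between 2 and 3. Over all genes the same values were 0.87, 0.72 and 0.63.

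Coding length sets an upper bound on how many ribosomes fit on an mRNA, so the members were also read against genes of their own length. In each length range with members, their median MRL was above that of all genes in it. It was 3.72 for the 6 members between 600 and 900 nt, against 3.08 for all genes of that length. It was 3.90 for the 6 members between 900 and 1200 nt, against 3.25. It was 3.83 for the 14 members between 1200 and 1800 nt, against 3.33, and 3.78 for the 8 members between 1800 and 3000 nt, against 3.33. Across the members mean MRL and coding length had a Spearman rho of 0.05, against 0.25 over all genes.

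**Figure D5:**
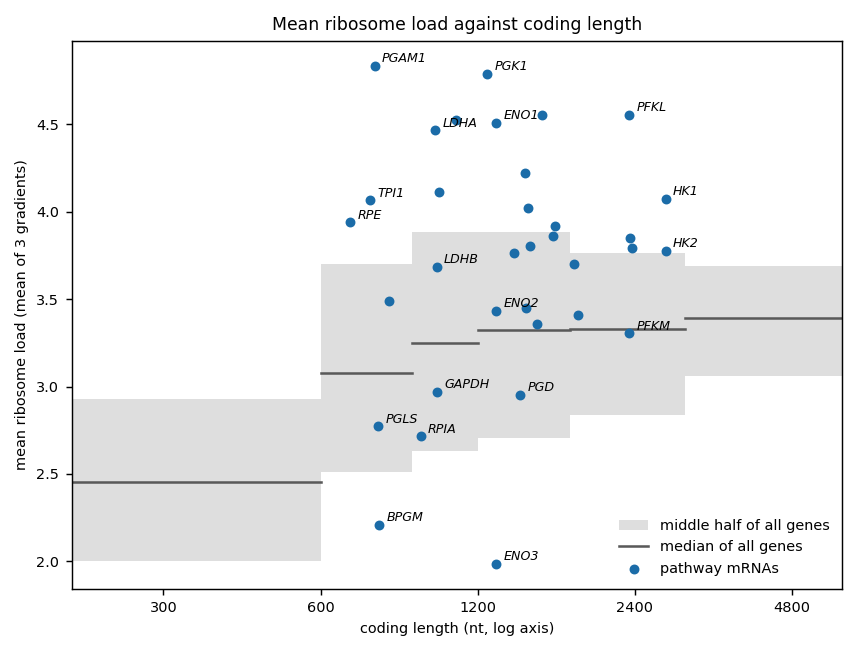
Mean ribosome load of the members, as the mean of 3 gradients, against coding length in nt on a log axis, with lines for the median and grey boxes for the middle quartiles of all genes kept in each length range. In the range between 1200 and 1800 nt, 12 of 14 members lie above the median of all genes, and the short genes PGAM1 and BPGM lie at opposite ends.

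The level of the members, as summed normalized count per kb of transcript, spanned a wide range. LDHB was at 51938 and GAPDH at 49323, and PFKFB4 was the lowest kept member at 68.6. In the authors' deposited table, 9 of 35 members (25.7%) are classed as heavy polysome genes, beside 12.1% of all genes. They are PFKP, SLC16A1, HK1, SLC2A1, ENO1, ALDOC, PKM, PFKL and PGK1. Only ENO3 is classed as a monosome gene (2.86%, beside 11.3% of all genes), and 25 members are unassigned or mixed in the authors' deposited table. PGAM1, with the highest mean MRL, is among those 25, as are LDHA and GAPDH.

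Other genes of sugar metabolism, from a list of 57 with further transporters, isozymes and linked enzymes, were set beside the members. The table holds 41 of them and 39 were kept. Their median MRL was 3.71 ± 0.20 (SD, n = 3 gradients). In MRL 20 of 39 were called above and 5 below the typical gene, beside the same 22.0% and 24.7% of all genes. The highest were PGM5, a phosphoglucomutase relative, at 4.996 ± 0.43, and BSG, the chaperone of lactate transporters, at 4.96 ± 0.54. The lowest were SLC16A4, a monocarboxylate transporter family member, at 1.79 ± 0.08, and TKTL1, a transketolase relative, at 1.83 ± 0.34. Both pairs were called in their direction by limma, with log2 deviations of 0.65 for PGM5 (adjusted p = 0.0005858), 0.64 for BSG (adjusted p = 0.0008138), -0.83 for SLC16A4 (adjusted p = 0.0005017) and -0.80 for TKTL1 (adjusted p = 0.001334), each in 3 of 3 gradients. In heavy polysomes against monosomes 18 of these 39 genes were called higher and 4 lower, beside 24.7% and 24.4% of all genes.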

How the data were processed

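The submitters' processing notes name featureCounts and the build GRCh38. Which aligner was used, whether strand entered and how reads shared between genes were treated is not given in the sources used here. As signal, the authors deposited 1 column per library, a normalized count that is the gene's reads over the library's size factor. Its steps gave back whole reads for 100.0% of values (tolerance 0.01 reads). The authors' deposited percent of a gene in a fraction was recomputed to within 5.5e-08, and their deposited MRL, a score, to within 4.13e-09 with weights 1, 2.5 and 6 solved from the table. ERCC spike-ins are not used here. Of 18 libraries 9 were used.

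The filter asked for a mean of at least 10 reads over the 9 libraries and for reads in each gradient, and it removed 941 genes. Fractions were compared with limma 3.58.1 (R 4.3.3, trend) on log2(normalized count + 1), all 9 libraries in 1 fit. MRL was tested with limma as log2 MRL minus the median gene of its gradient, over 3 gradients. All tests were two-sided with a Benjamini-Hochberg adjusted p of 0.05 over 12720 genes. Replicate numbers pair the fractions, since the labels carry a batch field with the same number. The deviations of same-numbered libraries from their group means correlated between -0.539 and 0.391. Gene models came from GENCODE release 29 (GRCh38), and 12715 kept genes had a coding length. Tables were prepared in Python 3.11.15. The limma steps for heavy polysomes against monosomes and for MRL were tested on simulated data.

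Alternatives were pseudocounts of 0.5 and 5, a minimum mean of 100 reads, no filter, scaling to total reads or by TMM, no variance trend, edgeR 4.0.16 and DESeq2 1.42.0 on the recovered reads, a replicate block, and leaving out each replicate. For MRL they included a heavy weight of 10, the mean gene, the summed light and heavy share and a loess fit on coding length. Leaving out the light or the monosome library of gradient 2 alone was chosen after seeing the data. Values in every library are given for the 3 highest and 3 lowest members by MRL, the isozyme pairs, GAPDH, PGK1, PKM and the pentose phosphate genes. Of the other pathway genes the 2 highest and 2 lowest by MRL are given as means. The members, lists and pairs were chosen with earlier results of these data known.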

Additional observations from a re-analysis of the deposited data

How the results depend on the processing

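Among the 34 members, pseudocounts, no read filter, TMM scaling and edgeR left every count of called members within 1.5 times. Leaving out 1 gradient gave 8 to 20 members above and 2 to 4 below the typical gene in MRL. Over all genes this was 9.89% to 29.1% and 17% to 28%. In heavy polysomes against monosomes it gave 5 to 20 higher and 2 to 2 lower, beside 9.99% to 31.4% and 14.7% to 30% of all genes. In light polysomes against monosomes it gave 0 to 2 higher and 1 to 8 lower, beside 1.17% to 17.3% and 3.25% to 18.1%. In heavy against light polysomes it gave 0 to 24 higher and 0 to 2 lower, beside 0% to 29.9% and 0% to 30.2%. Scaling to total reads gave 28 higher and 0 lower in heavy polysomes against monosomes (limma, with 0 lower at an unadjusted p under 0.05), beside 60.8% and 8.66% of all genes. It gave 19 higher and 1 lower in light polysomes against monosomes, beside 58.1% and 2.88%. DESeq2 gave 6 lower in light polysomes against monosomes and 19 higher in heavy against light polysomes. In both, DESeq2 also called more of all genes than the main setting did, so these increases are not particular to the members. A minimum of 100 reads gave 1 lower in heavy polysomes against monosomes, beside 2416 genes in all, since ENO3 was then left out. The summed light and heavy share gave 12 above and 1 below the typical gene, in place of 17 and 2. Over all genes this share also called fewer in both directions. The members no longer called above were HK1, PFKP, SLC16A1, PFKFB2 and PFKFB4 (adjusted p = 0.1116, 0.6841, 0.05014, 0.3635 and 0.5596, limma). Leaving out the light library of gradient 2 gave 22 higher in heavy against light polysomes, beside 24.7% of all genes.

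With the replicate block, 16 higher and 2 lower were called in heavy polysomes against monosomes, and 1 higher and 3 lower in light polysomes against monosomes. In heavy against light polysomes 15 higher and 2 lower were called. Over all genes, the block called more than the main setting in both directions in heavy polysomes against monosomes and in heavy against light polysomes. In light polysomes against monosomes it called fewer genes higher and more lower. With the block in edgeR, PFKP was not called in heavy polysomes against monosomes (adjusted p = 0.0525) nor SLC16A1 in heavy against light polysomes (adjusted p = 0.05141).

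Directions turned for members that were not called. In MRL, leaving out 1 gradient gave log2 deviations between -0.4669 and 0.1534 for GAPDH, -0.0791 and 0.2188 for TKT, -0.0579 and 0.1683 for PFKM, and -0.0025 and 0.1425 for PFKFB3. The summed light and heavy share put TKT at -0.2212, ENO2 at -0.1978, PFKM at -0.1683 and LDHB at -0.1429, and total-read scaling put PGD at 0.0188. For heavy polysomes against monosomes, total-read scaling put GAPDH at 0.6846, PGLS at 0.5799, RPIA at 0.5958 and PGD at 0.7862, all below the median of all genes, which this scaling moved to 1.39. There, leaving out a gradient or the monosome library of gradient 2 gave -1.5396 to 0.3854 for GAPDH, with 0.0882 without that library, -0.4369 to 0.8507 for TKT, -0.0355 to 0.3884 for ENO2 and -0.3302 to 0.4591 for PFKM. TKT was at -0.0742 in edgeR, 0.0881 in edgeR with the replicate block and -0.1132 in DESeq2. The cause was not tested. With 3 gradients, differences near the spread between them are not resolved. PFKFB4, ENO3 and ALDOA have the lowest levels per kb of transcript among the members, and normalized counts cannot give the amount of RNA per fraction.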
